A study of Mus musculus with 6 samples.

Results

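A set of 10 enzymes of serine synthesis, folate one-carbon metabolism and asparagine synthesis was followed in mouse liver RNA after treatment with iD1. The 10 genes were taken by symbol from a table of 34866 gene identifiers, and 9 of them were among the 13718 genes with enough counts to be tested. Polyadenylated RNA was sequenced from livers of 8-week-old male C57BL/6 mice, with 3 vehicle and 3 iD1 libraries, and the labels name no altered allele. The compound was given intraperitoneally and is known here by its code name alone; its dose, exposure time and target are not stated. For the control samples the treatment label reads untreated, whereas titles and design text speak of vehicle, the name used here. A vehicle column has a number found in no sample title and served as a vehicle library without a number. Nothing in the labels ties each library to its own animal, and the spread behind the p-values may be technical.

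Serine is made from a glycolytic intermediate by the successive action of PHGDH, PSAT1 and PSPH. Serine hydroxymethyltransferases, SHMT1 in the cytosol and SHMT2 in mitochondria, move a carbon unit from serine to tetrahydrofolate and leave glycine. Folate-bound carbon units are then interconverted by MTHFD1 in the cytosol and by MTHFD2, MTHFD1L and ALDH1L2 in mitochondria, and they feed purine, thymidylate and methionine synthesis. ASNS makes asparagine from aspartate and glutamine. Several of these genes are known targets of ATF4, the transcription factor that is translated when the alpha subunit of eIF2 is phosphorylated during amino acid shortage or endoplasmic reticulum stress. Hepatocytes are rich in folate enzymes and, when protein is supplied in the diet, express the serine synthesis enzymes weakly.

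The cytosolic enzyme Shmt1 fell to 51.6% of its vehicle level, while Psat1, Mthfd1l and Asns rose 2.36-, 2.18- and 1.92-fold. Their calls were not equally firm: Shmt1 passed the threshold whichever single library was left out, and each of the 3 that rose passed it in 1 of 6 such fits. Mitochondrial Shmt2 and cytosolic Mthfd1, which are expressed at a level like that of Shmt1, did not pass the test, and neither did Psph, Mthfd2 and Aldh1l2. Phgdh was close to the limit of detection. A gene is called higher or lower where edgeR's quasi-likelihood test gave an adjusted p under 0.05, adjusted by Benjamini-Hochberg across the 13718 genes. Of the 9 tested enzymes, 3 were higher and 1 was lower, against a background in which 8.42% of all tested genes were higher and 8.3% were lower, 16.7% in either direction. The median log2 fold change of the 9 was 0.011, against 0.001 over all tested genes. The 2 groups did not overlap for 5 of the 9 enzymes, and for 37.2% of all tested genes.

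Libraries held 23515571 to 37613549 estimated counts. Values are CPM, counts relative to the library total, scaled by TMM, the trimmed mean of M values. They are listed for vehicle replicate 1, vehicle replicate 2 and the unnumbered vehicle library, then for iD1 replicates 1, 2 and 3. Confidence intervals of fold changes are for single genes at 95% and are not adjusted. Hepatocyte markers were abundant in every library, with a summed level of 77140 to 100900 CPM in vehicle and 98350 to 107700 CPM in iD1, and Apoa1 and Hnf4a of the 9 were higher. Mitochondrially encoded transcripts took 12.2% ± 1.49 of counts in vehicle and 9.44% ± 0.804 in iD1 (SD, n = 3 each), without overlap. Neutrophil markers summed to 1.47 to 2.20 CPM in vehicle and 3.99 to 12.1 CPM in iD1. Of the 7, 5 were tested, and S100a8, S100a9 and Retnlg were higher. S100a8 had 2, 7 and 0 counts in vehicle and 17, 83 and 15 in iD1. S100a9 had 4, 7 and 12 against 19, 172 and 28, and Retnlg 1, 0 and 1 against 13, 39 and 11. These genes reached the count filter through the iD1 libraries, where they were high, so their calls are not independent of the filter. Ly6g and Mpo were not tested, with 0, 2 and 0 and 7, 0 and 1 counts in vehicle and 0 in every iD1 library. Stellate markers summed to 156 to 216 CPM in vehicle and 153 to 206 CPM in iD1. Of the 7, 1 was called, Lrat, which was lower (log2 fold change -1.77), while Hand2 had a log2 fold change of 0.53. Cholangiocyte markers summed to 22.9 to 36.7 and 28.0 to 45.6 CPM, and of 5 tested Sox9 was higher and Krt19 lower. Krt19 had 35, 47 and 45 counts in vehicle and 3, 9 and 3 in iD1. It reached the count filter through the vehicle libraries, where it was high, so its call is not independent of the filter. Summed levels of Kupffer cell markers were 133 to 222 CPM in vehicle and 131 to 188 CPM in iD1, and those of sinusoidal endothelial markers 158 to 206 and 135 to 169 CPM. Erythroid markers summed to 178 to 302 and 287 to 337 CPM, lymphocyte markers to 2.65 to 5.65 and 2.14 to 2.86 CPM, and dividing cell markers to 35.9 to 41.9 and 40.1 to 53.4 CPM. In bulk tissue, fewer cells of a type and less RNA per cell cannot be told apart.

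Promoter sequences of the 4 called enzymes are shown because ATF4 and its partners of the C/EBP family bind a composite element whose core is TGATGNAA. Windows of 250 bases before and 50 bases after each RefSeq transcription start (RefSeq, GRCm38.p6) were searched on both strands. A window was listed for 9 of the 10 genes, all but Aldh1l2. The core was found in 1304 of 32851 mouse windows of the same length, or 3.97%, and in 1 of the 9 enzymes, Asns. There it lies on the gene's strand, 23 to 16 bases before the RefSeq start, at chr6:7693225-7693232. In GENCODE M21 the gene starts 45 bases upstream of the RefSeq start, and the match lies in exon 1 of a protein-coding transcript. The E-box CACGTG was found in 7.15% of all windows and in 0 of the 9. Each sequence below reads 5′ to 3′ on the gene's strand, with the element's core in capitals and all other bases in lower case. Asns is shown from 250 bases before the start to the end of the element (chr6:7693225-7693459, minus strand), and the other 3 up to the base before the start.
Asns: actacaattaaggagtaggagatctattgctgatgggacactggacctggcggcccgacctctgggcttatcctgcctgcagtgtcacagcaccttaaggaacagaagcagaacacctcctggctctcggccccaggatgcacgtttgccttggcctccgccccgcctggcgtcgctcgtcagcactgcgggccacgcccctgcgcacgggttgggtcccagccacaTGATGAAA
Psat1: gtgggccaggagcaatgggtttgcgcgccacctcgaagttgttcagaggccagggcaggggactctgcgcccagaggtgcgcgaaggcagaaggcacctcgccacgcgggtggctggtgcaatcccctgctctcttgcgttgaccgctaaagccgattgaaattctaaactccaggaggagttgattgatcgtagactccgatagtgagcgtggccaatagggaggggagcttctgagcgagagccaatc
Mthfd1l: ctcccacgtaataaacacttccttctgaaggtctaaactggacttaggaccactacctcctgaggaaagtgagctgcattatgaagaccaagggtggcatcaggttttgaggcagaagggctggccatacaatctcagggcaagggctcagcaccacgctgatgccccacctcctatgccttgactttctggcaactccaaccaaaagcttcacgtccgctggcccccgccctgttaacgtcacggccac
Shmt1: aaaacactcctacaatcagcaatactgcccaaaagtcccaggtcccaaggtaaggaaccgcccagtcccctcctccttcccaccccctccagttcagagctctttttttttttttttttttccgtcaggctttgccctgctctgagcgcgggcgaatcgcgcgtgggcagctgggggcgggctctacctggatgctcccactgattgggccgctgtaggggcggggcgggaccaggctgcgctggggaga
Psat1 has 2 listed starts, and the window printed is chr19:15925060-15925309 on the minus strand. The windows of Mthfd1l and Shmt1 are chr10:3972825-3973074 on the plus strand and chr11:60811266-60811515 on the minus strand. GENCODE M21 starts Psat1 22278 and Shmt1 453 bases upstream of these RefSeq starts, so both windows lie inside the annotated genes, that of Psat1 in an intron and that of Shmt1 with 49 bases in exon 1 of a non-coding transcript. A match of letters is not a measured binding site, and the lack of one holds for this window only.

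Serine synthesis was represented at low levels, and of its enzymes Psat1 alone was called. Psat1 (ENSMUSG00000024640.9; GENCODE M21, GRCm38, chr19:15904678-15947337) encodes the phosphoserine aminotransferase of the pathway. Its levels were 0.865, 0.530 and 0.582 CPM in vehicle and 0.967, 2.07 and 1.58 CPM in iD1. All iD1 libraries lay above all vehicle libraries, but iD1 replicate 1 was only slightly above vehicle replicate 1. These levels rest on 26, 22 and 19 counts in vehicle and 24, 64 and 34 in iD1. The group means were 0.659 ± 0.18 and 1.54 ± 0.553 CPM (SD, n = 3 each), a log2 fold change of 1.24 (SE 0.368, interval 0.415 to 2.06; edgeR adjusted p = 0.0464). The call was lost without vehicle replicate 1, vehicle replicate 2, the unnumbered vehicle library, iD1 replicate 2 or iD1 replicate 3. In these fits the log2 fold change was 0.945 at the lowest and the adjusted p 0.167 at the highest, and without iD1 replicate 1 the log2 fold change was 1.49. With upper-quartile scaling, scaling to library size only, limma-voom or libraries thinned to the same total the adjusted p was 0.0588, 0.0834, 0.0548 and 0.0502.

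Phgdh (ENSMUSG00000053398.11; chr3:98313170-98339990), which catalyses the committed step of serine synthesis, gave 32 counts over the 6 libraries. The counts were 8, 1 and 5 in vehicle and 2, 8 and 8 in iD1, or 0.266, 0.024 and 0.153 CPM against 0.081, 0.259 and 0.371 CPM. The groups overlapped, and the gene did not reach the count minimum. A fit with no minimum gave a log2 fold change of 0.70 (SE 0.792; edgeR adjusted p = 0.658), so a difference was not detectable at this depth. Psph (ENSMUSG00000029446.14; chr5:129765558-129787449), the phosphatase that completes serine, was the most abundant of the 3. Its levels were 5.29, 4.41 and 4.63 CPM in vehicle and 3.91, 3.59 and 2.79 CPM in iD1. Every iD1 library was below every vehicle library, yet the test was not passed. The log2 fold change was -0.47 (SE 0.187, interval -0.89 to -0.05; edgeR adjusted p = 0.119). Its adjusted p ranged from 0.0879 to 0.309 with single libraries left out. Psph shares 452 exon bases with a gene on the opposite strand that was not analysed here, and if strand was not used in counting, reads of the pair cannot be told apart there. Within this short pathway the fitted change was thus above 0 for Psat1 and below 0 for Psph.

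Shmt1 (ENSMUSG00000020534.14; chr11:60788104-60811718) encodes cytosolic serine hydroxymethyltransferase. Its levels were 172, 203 and 185 CPM in vehicle and 105, 94.6 and 90.2 CPM in iD1. The 3 iD1 libraries lay close together and far below the vehicle libraries. Each level rests on at least 1942 counts. The means were 186.9 ± 15.4 and 96.5 ± 7.45 CPM (SD, n = 3 each), a log2 fold change of -0.95 (SE 0.125, interval -1.23 to -0.68; edgeR adjusted p = 0.00147). Without each library in turn it ranged from -1.01 to -0.89, with adjusted p from 0.00178 to 0.0101. The call was also kept with 9 of 9 other choices of scaling, filter, test and depth. Smcr8, which shares 184 exon bases with Shmt1 on the opposite strand, was 23 ± 4.26 CPM in vehicle and 26.0 ± 2.30 CPM in iD1. Whether the counting used strand is not stated in the sources used here.

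Shmt2 (ENSMUSG00000025403.5; chr10:127517123-127522444), the mitochondrial counterpart, was 126, 126 and 107 CPM in vehicle and 138, 102 and 122 CPM in iD1. The groups overlapped on both sides. Its log2 fold change was 0.01 (SE 0.142, interval -0.31 to 0.33; edgeR adjusted p = 0.972), and with upper-quartile scaling and with library size only it was -0.06 and -0.19. The interval does not reach the change fitted for Shmt1. Within each library, the ratio of Shmt2 to Shmt1 counts was 0.730, 0.620 and 0.579 in vehicle and 1.32, 1.08 and 1.35 in iD1. The ratio thus went from under 1 in every vehicle library to over 1 in every iD1 library, and a ratio of genes in a library does not move with its scaling. On the log2 scale, with 0.5 added to each count, the means were -0.64 ± 0.172 and 0.31 ± 0.179 (SD, n = 3 each), a difference of 0.96. The exact permutation test, two-sided, gave p = 0.1, the smallest that 3 libraries against 3 allow, and 0.2 after adjustment over the 4 ratios compared.

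**Figure D1:**
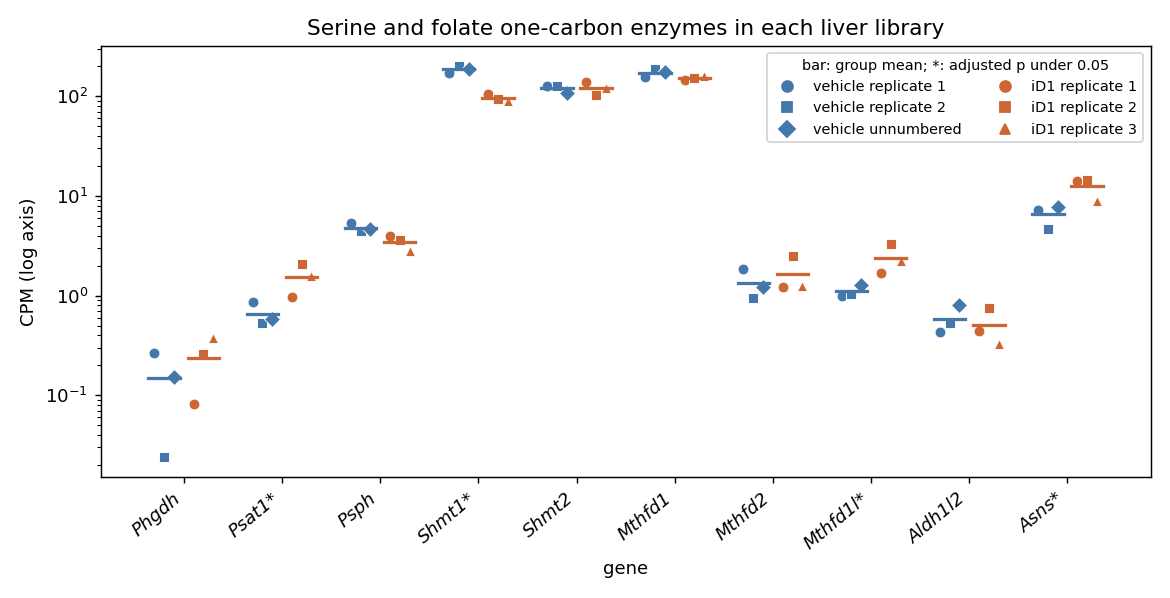
CPM of the 10 enzymes by library, on a log axis. Points are libraries (blue vehicle, orange iD1, with a symbol per replicate), bars are group means and asterisks mark an adjusted p under 0.05; vehicle and iD1 do not overlap for Psat1, Psph, Shmt1, Mthfd1l and Asns, and Phgdh stays under 0.4 CPM in all 6 libraries.

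Mthfd1 (ENSMUSG00000021048.7; chr12:76255298-76319803) encodes the cytosolic enzyme that joins synthetase, cyclohydrolase and dehydrogenase steps of the folate cycle. Its levels were 156, 187 and 173 CPM in vehicle and 145, 154 and 161 CPM in iD1. The highest iD1 library lay above the lowest vehicle library. The log2 fold change was -0.17 (SE 0.124, interval -0.44 to 0.11; edgeR adjusted p = 0.392).

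Of the mitochondrial folate enzymes, Mthfd1l was higher and Mthfd2 and Aldh1l2 did not pass the test. Mthfd1l (ENSMUSG00000040675.17; chr10:3973118-4167081) encodes the synthetase that releases formate. Its levels were 0.998, 1.04 and 1.29 CPM in vehicle and 1.69, 3.27 and 2.23 CPM in iD1. All iD1 libraries were above all vehicle libraries, with iD1 replicate 2 the highest, on 30, 43 and 42 counts in vehicle and 42, 101 and 48 in iD1. The log2 fold change was 1.12 (SE 0.295, interval 0.460 to 1.78; edgeR adjusted p = 0.0303). It ranged from 0.81 to 1.32 with single libraries left out. The call was lost without any of the 3 vehicle libraries, iD1 replicate 2 or iD1 replicate 3, with an adjusted p of up to 0.115, and held without iD1 replicate 1; with library size only the adjusted p was 0.0524. The log2 ratio of Mthfd1l to Mthfd1 counts was -7.27 ± 0.210 in vehicle and -6.04 ± 0.440 in iD1 (SD, n = 3 each), without overlap (exact permutation p = 0.1, adjusted 0.2).

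Mthfd2 (ENSMUSG00000005667.8; chr6:83305691-83325908), the mitochondrial dehydrogenase and cyclohydrolase, was 1.86, 0.940 and 1.23 CPM in vehicle and 1.21, 2.49 and 1.25 CPM in iD1. The highest value was again that of iD1 replicate 2, and the other iD1 libraries lay within the vehicle range. The log2 fold change was 0.33 (SE 0.372, interval -0.51 to 1.16; edgeR adjusted p = 0.593), and it was -0.12 without iD1 replicate 2. The log2 ratio of Mthfd2 to Mthfd1 counts differed by 0.44 between the groups, which overlapped (exact permutation p = 0.4, adjusted 0.4). In iD1 replicate 2, the neutrophil markers also had their highest sum, 12.1 CPM, against 4.27 and 3.99 CPM in the other iD1 libraries; their part in the values of Psat1, Mthfd1l and Mthfd2 was not tested.

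Aldh1l2 (ENSMUSG00000020256.14; chr10:83487450-83534140), the mitochondrial formyl-tetrahydrofolate dehydrogenase, was 0.432, 0.530 and 0.796 CPM in vehicle and 0.443, 0.744 and 0.325 CPM in iD1. The groups overlapped, and the log2 fold change of -0.18 had a wide interval (SE 0.426, -1.14 to 0.77; edgeR adjusted p = 0.807). Aldh1l2 shares 1056 exon bases with D10Wsu102e on the opposite strand, which was far more abundant at 183 ± 21.1 CPM in vehicle and 187 ± 29.7 CPM in iD1 (SD, n = 3 each). If strand was not used in counting, reads of the 2 genes cannot be told apart there. Its cytosolic relative Aldh1l1, which consumes formyl-tetrahydrofolate, was at 830 ± 160.0 CPM in vehicle and 1027 ± 56.5 CPM in iD1, and was not called (log2 fold change 0.31, edgeR adjusted p = 0.265). The log2 ratio of Aldh1l2 to Aldh1l1 counts differed by -0.55 (exact permutation p = 0.3, adjusted 0.4).

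**Figure D2:**
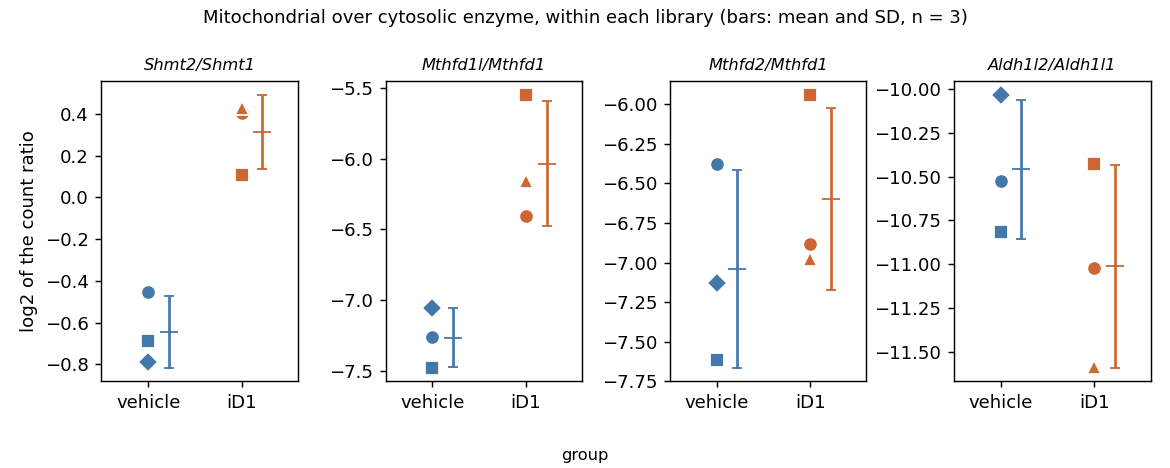
Log2 ratio of mitochondrial to cytosolic enzyme counts in each library, for the 4 pairs, with 0.5 added to each count. Each panel has its own vertical axis; points are libraries and bars are the mean and SD (n = 3); the Shmt2 to Shmt1 ratio is below 0 in the 3 vehicle libraries and above 0 in the 3 iD1 libraries.

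Asns (ENSMUSG00000029752.12; chr6:7675169-7693254), the enzyme with the TGATGAAA match shown above, was 7.19, 4.65 and 7.81 CPM in vehicle and 14.2, 14.3 and 8.96 CPM in iD1. All iD1 libraries were above all vehicle libraries, with iD1 replicates 1 and 2 alike and iD1 replicate 3 near the top of the vehicle range. The counts were 216, 193 and 255 in vehicle and 353, 441 and 193 in iD1. The means were 6.55 ± 1.67 and 12.5 ± 3.05 CPM (SD, n = 3 each), a log2 fold change of 0.94 (SE 0.239, interval 0.396 to 1.48; edgeR adjusted p = 0.0297). With single libraries left out it ranged from 0.74 to 1.13. The call held without iD1 replicate 3 and was lost without any other single library, vehicle or iD1, with an adjusted p of up to 0.0912; with library size only the adjusted p was 0.0630. The library with the lowest iD1 value differed from that of Psat1 and Mthfd1l, where iD1 replicate 1 was lowest.

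**Figure D3:**
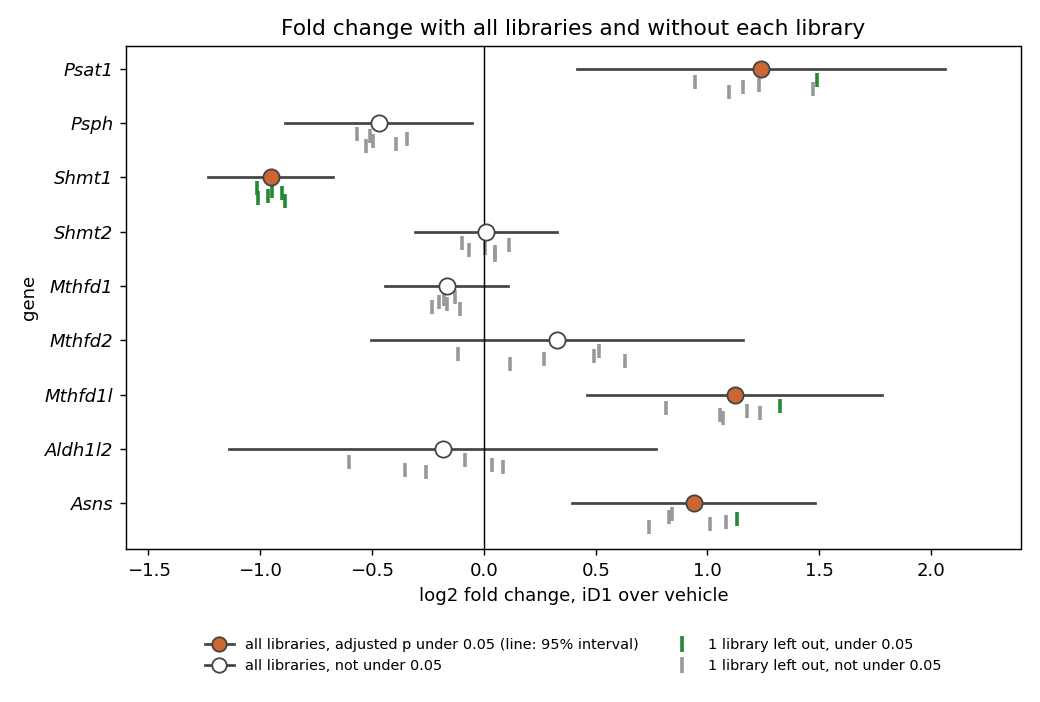
Log2 fold change of the 9 tested enzymes (iD1 over vehicle), with all libraries (circles, with 95% intervals as lines) and without each library in turn (ticks). Filled circles and green ticks have an adjusted p under 0.05; all 6 ticks of Shmt1 are green, and 1 of 6 is green for Psat1, Mthfd1l and Asns.

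Per kilobase of the longest annotated transcript, 3 enzymes stood far above the rest. In vehicle livers Shmt1 was the highest at 65.4 ± 5.38 CPM per kb, above Mthfd1 at 53.1 ± 4.77 and Shmt2 at 52.3 ± 4.67, and the last 2 overlapped. In iD1 livers Shmt2 at 52.7 ± 7.96 and Mthfd1 at 47.3 ± 2.43 overlapped, and Shmt1 at 33.8 ± 2.61 CPM per kb was below both in every library (SD, n = 3 each). Asns came next in both groups, at 3.25 ± 0.830 and 6.19 ± 1.51 CPM per kb, and was separate from its neighbours. Psph followed at 1.66 ± 0.159 in vehicle and 1.19 ± 0.202 CPM per kb in iD1. Mthfd2, Mthfd1l and Psat1 lay between 0.252 and 0.644 CPM per kb in vehicle, where Mthfd1l and Psat1 overlapped. In iD1 they lay between 0.588 and 0.792, where Psph overlapped with Mthfd2, Mthfd2 with Mthfd1l and Mthfd1l with Psat1. Aldh1l2 and Phgdh were lowest, at 0.0973 ± 0.0311 and 0.0783 ± 0.0640 CPM per kb in vehicle, and overlapped in both groups. Summed over the 10 genes, and carried by Shmt1, Mthfd1 and Shmt2, the level was 471 to 528 CPM in vehicle and 377 to 411 CPM in iD1. Of these carriers only Shmt1 was called, at 186.9 CPM in vehicle and 96.5 CPM in iD1. Mthfd1 was at 172 and 153.2 CPM and Shmt2 at 119.7 and 120.6 CPM.

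Among 16 other genes of the folate cycle, all tested, 1 was higher and 0 were lower with edgeR, DESeq2 and limma-voom alike (median log2 fold change 0.036). At an unadjusted p under 0.05, 2 were higher and 2 lower, against 15.2% higher and 16.1% lower of all tested genes at that threshold. The gene called higher was Slc25a32, the carrier that brings folate into mitochondria. It was 18.4, 21.4 and 25.3 CPM in vehicle and 49.4, 38.9 and 58.9 CPM in iD1, well apart. Its log2 fold change was 1.18 (SE 0.174; edgeR adjusted p = 0.00265), and it was called in 6 of 6 fits with a library left out. The list's higher count was 2 without the unnumbered vehicle library, and with upper-quartile scaling or library size only 1 gene was lower.

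Of 25 listed genes that use or break down serine and glycine, 24 were tested, 3 were higher and 4 were lower (median log2 fold change 0.078). The shares among all tested genes were 8.42% higher and 8.3% lower. Enzymes that break down serine did not move together: Sds and Sdsl rose and Srr fell. Sds, serine dehydratase, rose from 59.4, 140.7 and 105 CPM in vehicle to 302, 330 and 452 CPM in iD1. Its log2 fold change was 1.82 (SE 0.316; edgeR adjusted p = 0.00922). Its relative Sdsl rose from 7.85, 9.40 and 8.24 CPM to 16.4, 17.3 and 15.2 CPM (log2 fold change 0.94, SE 0.126; adjusted p = 0.00169). Gatm, which uses glycine in the opening step of creatine synthesis, fell from 7.05 ± 1.05 to 2.12 ± 0.742 CPM (log2 fold change -1.74, SE 0.253; adjusted p = 0.00244). Sds, Sdsl and Gatm were each called in 6 of 6 fits with a library left out. Amt, the aminomethyltransferase of the glycine cleavage system, fell from 25.7 ± 4.45 to 16.2 ± 1.65 CPM (log2 fold change -0.66; adjusted p = 0.0179). That call was lost without vehicle replicate 1, vehicle replicate 2 or iD1 replicate 3, with an adjusted p of up to 0.0733. Srr, serine racemase, which can also break down serine and was named after its values were seen, fell from 88.3 ± 5.38 to 62.5 ± 5.84 CPM (log2 fold change -0.50, SE 0.118; adjusted p = 0.0201). Its call was lost without vehicle replicate 1, vehicle replicate 2, iD1 replicate 2 or iD1 replicate 3, with an adjusted p of up to 0.0667. The list's lower count was 1 without vehicle replicate 2 or iD1 replicate 3, and 2 without vehicle replicate 1 or iD1 replicate 2.

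In the methionine cycle, 3 of 13 tested genes were higher and 2 were lower (median log2 fold change 0.156). Among all tested genes, 8.42% were higher and 8.3% lower. Nnmt, which methylates nicotinamide with S-adenosylmethionine, rose from 73.2 ± 15.8 to 234 ± 84.8 CPM (log2 fold change 1.68, SE 0.27; edgeR adjusted p = 0.00617). Mtap, which recovers the sulfur-containing part of methylthioadenosine, fell from 15.9 ± 1.70 to 9.07 ± 1.58 CPM (log2 fold change -0.81, SE 0.154; adjusted p = 0.00814). Both were called without each library in turn. Bhmt, which remethylates homocysteine with betaine, rose from 2619 ± 684.9 to 4703 ± 497.1 CPM (log2 fold change 0.84; adjusted p = 0.0296), and Ahcyl2 fell from 18.7 ± 3.56 to 11.7 ± 2.01 CPM (log2 fold change -0.68; adjusted p = 0.0258). Both calls were lost without vehicle replicate 1, the unnumbered vehicle library, iD1 replicate 2 or iD1 replicate 3, with adjusted p up to 0.0982 for Bhmt and 0.0886 for Ahcyl2, and that of Bhmt also with library size only. The remaining higher gene, Mat1a, the hepatic S-adenosylmethionine synthetase, was chosen for mention after its values were seen; it went from 2383 ± 893.3 to 5573 ± 1412 CPM (log2 fold change 1.23; adjusted p = 0.0308), and its call was lost without vehicle replicate 2, the unnumbered vehicle library, iD1 replicate 2 or iD1 replicate 3, with adjusted p up to 0.101. The list's counts were 1 higher without the unnumbered vehicle library, iD1 replicate 2 or iD1 replicate 3, and 1 lower without those or vehicle replicate 1.

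Purine synthesis, which draws on formyl-tetrahydrofolate, had 0 of 11 genes called with edgeR, DESeq2 or limma-voom (median log2 fold change 0.043), and at an unadjusted p under 0.05, 2 were higher and 3 lower (15.2% and 16.1% of all tested genes). The smallest p-values were those of Pfas, at 7.17 ± 1.05 and 4.80 ± 1.24 CPM (log2 fold change -0.59, adjusted p = 0.0878), and Gart, at 25.6 ± 1.96 and 20.4 ± 1.73 CPM (log2 fold change -0.33, adjusted p = 0.0906). With upper-quartile scaling or without the count filter 1 of these genes was lower, and scaling to library size only gave 3 lower. Without iD1 replicate 1, 1 was higher and 1 lower. Of 8 genes of asparagine, aspartate and glutamine metabolism other than Asns, 1 was higher and 1 was lower (median log2 fold change 0.268). At the same threshold, 8.42% of all tested genes were higher and 8.3% lower. The higher count was 2 with DESeq2 size factors, DESeq2, limma-voom or non-robust shrinkage, which added Glul, glutamine synthetase. Glul, named after its values were seen, was at 483 ± 19.8 CPM in vehicle and 659 ± 36.5 CPM in iD1 (log2 fold change 0.45; edgeR adjusted p = 0.0509). Got1, the cytosolic aspartate aminotransferase, was 56.5, 175 and 131 CPM in vehicle and 483, 569 and 749 CPM in iD1 (log2 fold change 2.31, SE 0.42; edgeR adjusted p = 0.0142). Its call was lost without the unnumbered vehicle library, iD1 replicate 2 or iD1 replicate 3, with an adjusted p of up to 0.0568, and without the count filter. Nit2, an omega-amidase, fell from 103 ± 8.02 to 75.4 ± 3.43 CPM (log2 fold change -0.45, adjusted p = 0.0263), a call lost without vehicle replicate 1, the unnumbered vehicle library, iD1 replicate 1 or iD1 replicate 3, with an adjusted p of up to 0.0909.

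Atf4 mRNA was 92.5, 83.5 and 94.7 CPM in vehicle and 68.2, 85.3 and 71.2 CPM in iD1. The groups overlapped and the gene was not called (log2 fold change -0.27, SE 0.126; edgeR adjusted p = 0.177), although with library size only it was called lower. ATF4 is regulated mainly in translation, which RNA levels do not measure. Of 12 eIF2alpha kinases and ATF4 family factors, 3 were higher and 0 lower with edgeR (median log2 fold change 0.157), and at an unadjusted p under 0.05, 4 were higher and 1 lower (15.2% and 16.1% of all tested genes). DESeq2 called 4 and limma-voom 2 higher, and both 0 lower. Cebpb rose from 70.9 ± 20.4 to 236 ± 28.8 CPM (log2 fold change 1.74, SE 0.202; adjusted p = 0.000977) and Atf3 from 1.73 ± 0.421 to 10.1 ± 4.29 CPM (log2 fold change 2.56, SE 0.361; adjusted p = 0.00379), both in 6 of 6 fits with a library left out. Ddit3, which encodes CHOP, rose from 5.71 ± 0.515 to 9.19 ± 2.54 CPM (log2 fold change 0.69, SE 0.206; adjusted p = 0.0475), a call that held without iD1 replicate 1 and was lost without any other single library, with an adjusted p of up to 0.162. It was also lost with upper-quartile scaling, library size only, limma-voom or non-robust shrinkage. Of the 12, 2 were higher and 1 was lower with upper-quartile scaling, 2 were higher and 2 lower with library size only, and 1 was lower with a minimum count of 50.

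Of 22 further ATF4 targets, 21 were tested, and 10 were higher and 0 lower with edgeR, DESeq2 and limma-voom. Their median log2 fold change was 0.61. This list, like the others, was chosen with earlier results of these data known, so its counts are not an independent test. At an unadjusted p under 0.05, 12 were higher and 0 lower (15.2% and 16.1% of all tested genes). The higher count was 7 to 10 with single libraries left out. With upper-quartile scaling or a minimum count of 50 it was 9, and with library size only 8. Sesn2, a stress-induced regulator of mTORC1, rose by 2.04 on the log2 scale (SE 0.206, adjusted p = 0.000499). Fgf21, a hepatic hormone, rose by 2.99 (SE 0.347, adjusted p = 0.000871), and Ppp1r15a, which directs eIF2alpha dephosphorylation, rose by 1.75 (SE 0.203, adjusted p = 0.000976). Slc38a2, a transporter of small neutral amino acids, rose from 66.0 ± 21.2 to 330 ± 100.3 CPM (log2 fold change 2.32, SE 0.299; edgeR adjusted p = 0.00265). These 4 were called in 6 of 6 fits with a library left out. Among the other called targets, named after their values were seen, Trib3 and Chac1 were also called in 6 of 6. Gdf15 was called in 5 such fits, Ddit4 in 3, Slc3a2 in 2 and Eif4ebp1 in 1. Named after their values were seen, the listed tRNA synthetase genes Aars, Cars, Gars, Nars, Sars and Wars were not called. Neither were Slc7a11, Slc7a5, Slc7a1, Pck2 and Vldlr. The promoter core TGATGNAA was found in 8 of 17 further ATF4 targets that have a window. Such targets may be listed because of this element, so that share is not an independent test. A gene was counted if any of its windows matched, whereas the 3.97% given above is per window. The core was found in 2 of 12 eIF2alpha kinases and ATF4 family factors. It was found in 0 of 12 folate, 0 of 21 serine and glycine, 0 of 11 methionine and 0 of 10 purine genes. It was found in 1 of 6 genes of the asparagine, aspartate and glutamine list. Over the 7 lists together, each gene counted once, 105 of 107 genes were tested, 21 were higher and 7 were lower. Across all tested genes, 8.42% were higher and 8.3% lower at an adjusted p under 0.05.

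**Figure D4:**
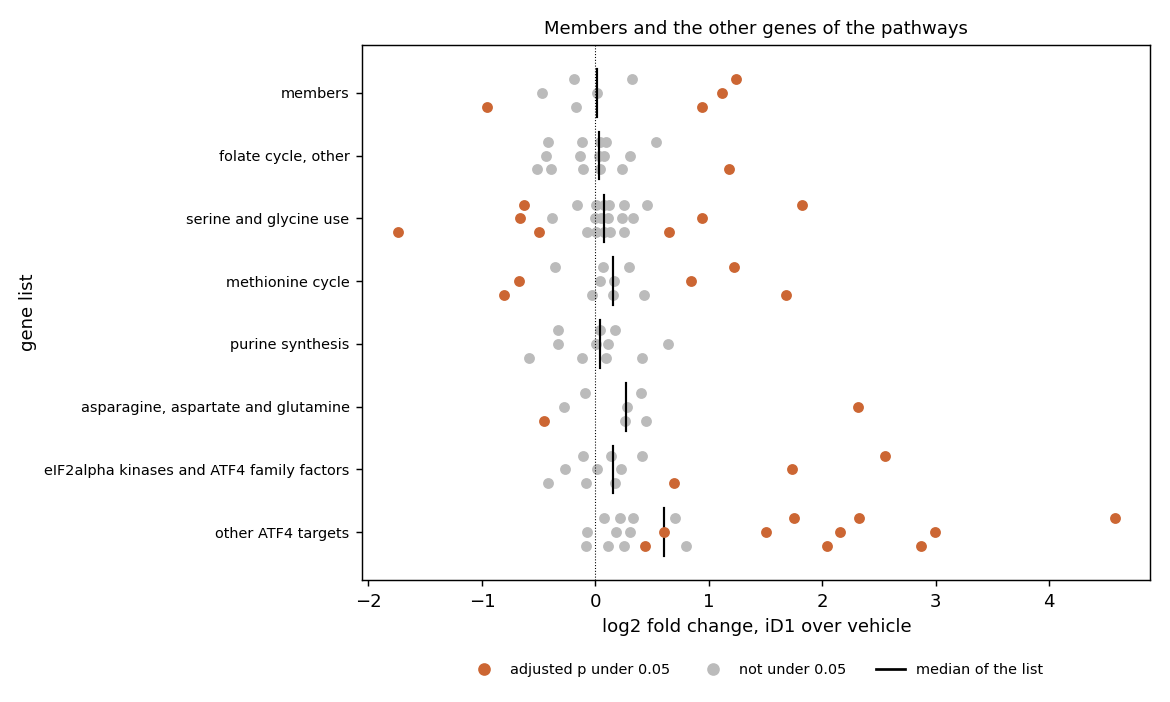
Log2 fold change (iD1 over vehicle) of each tested gene in the 10-enzyme set and in the 7 lists of related genes. Points are genes, coloured where the adjusted p is under 0.05, and vertical lines are list medians; the medians lie between 0.011 and 0.61, the highest being that of the other ATF4 targets.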

How the data were processed

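The deposited table holds unscaled estimated counts per gene; aligner, quantifier and build are not given in the sources used. Per the labels' protocols, RNA was isolated with TRIzol and RNeasy and libraries were made with a TruSeq stranded mRNA kit. Between 22.5% and 27.7% of the values of a library were not whole, and they were rounded. Symbols were matched for 34652 of 34866 identifiers, and positions come from GENCODE M21 (GRCm38), which holds 99.4% of the identifiers without version.

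Genes were filtered with filterByExpr (minimum count 10, minimum total 15) and scaled by TMM. The factors were 1.108, 1.104 and 1.01 in vehicle and 1.005, 0.878 and 0.916 in iD1, without overlap, so scaling differed between the groups. Genes were compared with edgeR 4.0.16 (robust quasi-likelihood F test, two-sided, R 4.3.3), with a threshold of 0.05. The code of the fit was also run on counts simulated with the same spread for every gene, which does not bear on the calls. The 4 ratios were compared by exact permutation in SciPy 1.17.1. The members and gene lists were chosen with earlier results of these data known. All members were named, with up to 4 called genes per list by smallest p, or up to 2 where none was called. No library pair of a group agreed within sampling noise. Alternatives were other scalings, DESeq2 1.42.0, limma-voom 3.58.1, other filters, non-robust shrinkage, thinning, a replicate block, a threshold of 0.01 and leaving out each library.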

Additional observations from a re-analysis of the deposited data

How the results depend on the processing

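Of 141 fold changes of members under alternatives, 118 kept their side of the threshold and 23 lost a call; no called member changed sign, while the uncalled Shmt2, Mthfd2 and Aldh1l2 did in some. The main counts were 2293 genes called, 4 members (3 higher, 1 lower) and 28 pathway genes (21 higher, 7 lower). Leaving out each library gave 1212 (without the unnumbered vehicle library) or 1231 to 2574 genes, 1 to 3 members, of which 0 to 2 higher, and 17 to 31 pathway genes (18 without the unnumbered vehicle library), of which 13 to 24 higher and 2 to 7 lower. With upper-quartile scaling 12 pathway genes were lower, and 38.4% of all calls were higher. With library size only, under which the median of all tested genes was -0.20 on the log2 scale and 24.1% of calls were higher (50.4% in the main analysis), 0 members were higher, 1 was called, and 15 pathway genes were lower. At an adjusted p of 0.01 there were 825 genes, 1 member with 0 higher, and 15 pathway genes, 13 higher and 2 lower. A replicate block, possible for 4 libraries only, called 768 genes, 2 members (1 higher) and 16 pathway genes (1 lower); the numbers are not stated to pair animals, and deviations of same-numbered libraries correlated at 0.203 and -0.15. The causes were not tested. Depth limits Phgdh, Psat1, Mthfd2, Mthfd1l and Aldh1l2, which had 101 counts or fewer in every library.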
